A study of Homo sapiens with 4 samples.

Results

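Antisense transcripts are described here in MV4;11 cells, each beside the gene on the opposite strand from which it takes its name. The deposited table lists 876 symbols that end in -AS and a digit, of 56638 symbols in all. Of these 436 had no read in any library, 236 had fewer than 40 reads summed over the 4 libraries, and 204 had 40 or more. The 204 members were thus chosen by their name and by their reads summed over both groups, and each was paired with the row whose symbol is the part before -AS (the sense row). A sense row was found for 203 members, which used 201 distinct rows because GAS6 and PAXIP1 each have 2 antisense members. JHDM1D-AS1 was left without a partner, since JHDM1D stands in the table under its newer symbol KDM7A.

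MV4;11 is an established human acute myeloid leukaemia line with an MLL fusion and a mutated FLT3 receptor. The parental line was kept with vehicle in 2 libraries, and in the other 2 with CU-T12-9 at 1 µg/mL, a synthetic agonist of the receptor pair TLR1/TLR2. Both conditions lasted 24 h. The sample label calls the vehicle DMSO and the treatment protocol calls it PBS, so a share of the difference that belongs to DMSO cannot be told apart. The libraries are called DMSO and CU-T12-9 libraries 1 and 2. No label states that library 1 and library 2 are separate cultures. Every p-value therefore measures only the spread between these libraries, which may be technical.

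An antisense transcript is read from the DNA strand opposite to a gene. Many arise at the gene's own promoter, which can fire in both directions, so that a non-coding RNA runs away from the gene. Others start inside or beyond the gene and run through its exons, introns or end. Such RNAs are often short-lived because the nuclear exosome degrades them, and some have been described as regulators of the gene they oppose, in either direction. The sources used here do not give whether the libraries or the counting kept strand. Where a member overlaps its sense gene, reads of the pair therefore cannot be told apart with certainty, and the values of both rows are uncertain to that extent.

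Head-to-head pairs are the arrangement in which sense and antisense share a start region, so 5 of them are shown, picked after their values were seen for the ways in which a pair can move. IL10RB encodes a chain of the interleukin-10 receptor and rose together with its antisense row. UBA6 encodes a ubiquitin-activating enzyme and fell together with its antisense row. MANEA (a mannosidase of the Golgi) and TRAM2 (a partner of the translocon) fell while their antisense rows rose, and UBL7, a ubiquitin-like protein, rose while its antisense row fell. Each sequence is the RefSeq promoter window of the sense gene, up to 250 bases before its start in GRCh38.p14, written 5′ to 3′ on the sense strand. The capitals mark the stretch between the RefSeq start of the antisense RNA, which runs leftwards from there, and that of the sense gene. The windows of IL10RB and UBA6 stop 9 and 24 bases early, where GENCODE 29 places the transcribed leader.
IL10RB (chr21:33266117-33266357, plus strand): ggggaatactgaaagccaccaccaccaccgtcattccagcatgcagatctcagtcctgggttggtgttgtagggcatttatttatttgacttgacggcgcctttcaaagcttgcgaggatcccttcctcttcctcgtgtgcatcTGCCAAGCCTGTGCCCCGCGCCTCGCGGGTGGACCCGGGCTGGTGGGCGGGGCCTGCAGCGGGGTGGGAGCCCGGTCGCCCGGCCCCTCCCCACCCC
UBA6 (chr4:67701180-67701405, minus strand): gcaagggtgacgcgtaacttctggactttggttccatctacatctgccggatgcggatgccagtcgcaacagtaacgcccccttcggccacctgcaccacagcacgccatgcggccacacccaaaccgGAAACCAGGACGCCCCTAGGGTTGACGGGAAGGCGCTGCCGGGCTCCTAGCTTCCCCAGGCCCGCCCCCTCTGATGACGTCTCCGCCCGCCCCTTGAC
MANEA (chr6:95577285-95577534, plus strand): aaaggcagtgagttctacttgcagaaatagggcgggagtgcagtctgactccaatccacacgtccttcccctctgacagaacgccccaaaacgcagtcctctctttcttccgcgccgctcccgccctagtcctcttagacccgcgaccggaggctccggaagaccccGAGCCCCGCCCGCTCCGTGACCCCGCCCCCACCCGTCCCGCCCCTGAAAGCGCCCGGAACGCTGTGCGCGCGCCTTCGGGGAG
TRAM2 (chr6:52577061-52577310, minus strand): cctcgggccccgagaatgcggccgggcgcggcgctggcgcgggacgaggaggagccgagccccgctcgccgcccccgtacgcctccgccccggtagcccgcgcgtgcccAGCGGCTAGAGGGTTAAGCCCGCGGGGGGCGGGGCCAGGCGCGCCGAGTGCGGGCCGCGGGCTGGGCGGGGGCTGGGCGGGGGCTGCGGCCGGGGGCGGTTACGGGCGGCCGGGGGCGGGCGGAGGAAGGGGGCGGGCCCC
UBL7 (chr15:74461189-74461438, minus strand): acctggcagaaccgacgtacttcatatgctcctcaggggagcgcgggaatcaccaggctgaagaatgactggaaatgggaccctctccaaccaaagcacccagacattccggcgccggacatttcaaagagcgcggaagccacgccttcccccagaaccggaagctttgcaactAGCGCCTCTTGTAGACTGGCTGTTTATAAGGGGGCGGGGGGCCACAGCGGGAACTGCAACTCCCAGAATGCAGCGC
In these windows the letters GGGCGG, counted on both strands, occurred 1 time before IL10RB, 3 times before UBA6, 5 times before MANEA, 10 times before TRAM2 and 1 time before UBL7. TATAAA occurred in the UBL7 window alone among the 5. Over the 171 sense genes with a RefSeq window of 250 bases, 64.9% held GGGCGG, and over the 162 antisense members with a window 59.9% did, against 42.6% of all 35116 windows. CCAAT was found in 33.3% of sense and 34.0% of antisense windows (32% of all windows), TATAAA in 8.19% and 4.94% (10.7%), CACGTG in 7.60% and 8.02% (6.34%), the interferon-stimulated response element in 4.09% and 2.47% (3.02%), and the kappaB consensus in 9.94% and 12.3% (9.96%). Both strands were searched and matches may overlap each other. A match describes letters and is no evidence of binding.

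The libraries held between 23087102 and 25867733 counted reads, and the 204 members took 0.207% to 0.220% of them. Of 12 MV4;11 markers 10 were above 1 CPM (reads scaled to a common library size) in every library. CD14 (0.0384 to 0.398 CPM) stayed below, and MPO was above it only under DMSO. Red cell markers had no read and T cell markers at most 1 in a library. The 2 CU-T12-9 libraries differed more from each other (6.99 chi-square units per degree of freedom over genes) than the DMSO libraries did (2.42), and the antisense rows took part in this. Of the members 60.8% were higher in CU-T12-9 library 1 than in library 2 (median log2 difference 0.08), against 41.8% of the sense rows and 49.9% of all genes tested. Between the DMSO libraries 51.5% of the members were higher in library 1.

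Under CU-T12-9 46 antisense members rose and 34 fell, 122 did not pass the test and 2 were too low to be tested. The test was edgeR's quasi-likelihood F-test over 14018 genes with Benjamini-Hochberg adjustment and a threshold of 0.05, and "rose", "fell" and "changed" are used only of rows that passed it. Over all genes tested 65.2% changed, 32.0% upwards and 33.2% downwards, so the 22.5% of members that rose and the 16.7% that fell were both below the background. Of 180 tested sense rows 74.4% changed, above the background, with 69 higher, 65 lower and 46 not past the threshold, and 21 further sense rows were not tested. Read depth differed along with these shares. The tested members had a median of 248 reads over the 4 libraries, the tested sense rows 4102 and all tested genes 2230. Among rows of 100 to under 1000 reads 41.4% of 116 members changed, against 54.3% of all genes. Among rows of 1000 to under 10000 reads 64.0% of 25 members changed, against 72.4%. Under 100 reads 28.1% of 57 members changed, against 38.7%, and at 10000 reads or more 0 of 4 members, against 80.7%. Tested against a fold of 2, 8 members passed upwards and 7 downwards, where 7.23% and 5.55% of all genes did, and 10 and 9 sense rows passed.

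The middle of the antisense changes lay close to 0. The median log2 fold change of the 202 tested members was 0.10, with quartiles of -0.25 and 0.58, beside -0.03 for the sense rows and 0.001 for all genes. Without CU-T12-9 library 1 the antisense median was -0.001 and without library 2 it was 0.17, so its sign rested on a single library. In 21 members 1 group had under 20 reads, so that they reached the floor of 40 through the other group (15 through CU-T12-9 and 6 through DMSO), and the choice of members itself favours a difference there. Without them 37 of 183 members rose and 29 fell, with a median of 0.07.

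The largest rises were those of AFAP1-AS1 and ITGB2-AS1. Of the 10 largest, AFAP1-AS1, TNK2-AS1, RAP2C-AS1, RAD21-AS1 and JHDM1D-AS1 reached the floor through CU-T12-9, so their choice favours a rise, and their values are a description. AFAP1-AS1 went from 0 and 1 reads to 67 and 55, a ratio of 133 per library size with a 95% counting interval of 23.4 to 5279. The sense gene AFAP1, which encodes an actin filament-associated protein, stood at 5.99 and 4.68 CPM under DMSO and 7.06 and 7.82 CPM under CU-T12-9 (log2 fold change 0.48 ± 0.16 SE, edgeR adjusted p = 0.0232). That small rise of the sense gene was not called without DMSO library 2 (0.30, adjusted p = 0.231). ITGB2-AS1 went from 9 and 12 reads to 618 and 455 (0.345, 0.501, 26.4 and 20.1 CPM), a log2 fold change of 5.77 ± 0.24 SE (edgeR adjusted p = 7.2e-08). ITGB2 encodes the beta chain of the leukocyte integrins and rose as well, from 284 and 293 to 688 and 784 CPM (log2 fold change 1.35 ± 0.07). The ITGB2-AS1 row lies within ITGB2, and it held 0.122 and 0.171 reads per 100 reads of ITGB2 under DMSO and 3.84 and 2.57 under CU-T12-9. This share was higher in both CU-T12-9 libraries than in either DMSO library, and the groups did not overlap in the antisense or the sense row.

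TNK2-AS1 and RAP2C-AS1 had few reads under DMSO. TNK2-AS1 went from 4 and 13 reads to 76 and 68 (log2 fold change 3.18 ± 0.38), and this value was 2.51 without DMSO library 1 and 4.29 without DMSO library 2. TNK2, a non-receptor tyrosine kinase, rose by 1.27 ± 0.07. RAP2C-AS1 had 5 and 7 reads, then 41 and 51 (3.03 ± 0.36), and RAP2C, a small GTPase of the RAS family, rose by 0.44 ± 0.08. RAD21-AS1 went from 4 and 6 to 23 and 17 reads (2.09 ± 0.44), while RAD21, a cohesin subunit, fell from 496 and 484 to 284 and 292 CPM. The other 5 of the 10 largest rises were smaller. LBX2-AS1 rose by 1.73 on the log2 scale beside LBX2 (1.16), a homeobox gene, PRKAR2A-AS1 by 1.44 beside PRKAR2A (0.60), a regulatory subunit of protein kinase A, and RASSF8-AS1 by 1.35 beside RASSF8 (0.60). PAXBP1-AS1 rose by 1.45 while PAXBP1 fell by 0.31 (by 0.20 without CU-T12-9 library 2). JHDM1D-AS1 went from 8 and 7 reads to 17 and 28 (1.69 ± 0.42), and its partner under the newer symbol KDM7A, a histone demethylase, from 53 and 55 to 279 and 283 reads. Without DMSO library 1 PRKAR2A-AS1 missed the threshold (adjusted p = 0.0559), and RASSF8 did without DMSO library 2 (0.45, adjusted p = 0.173).

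**Figure D1:**
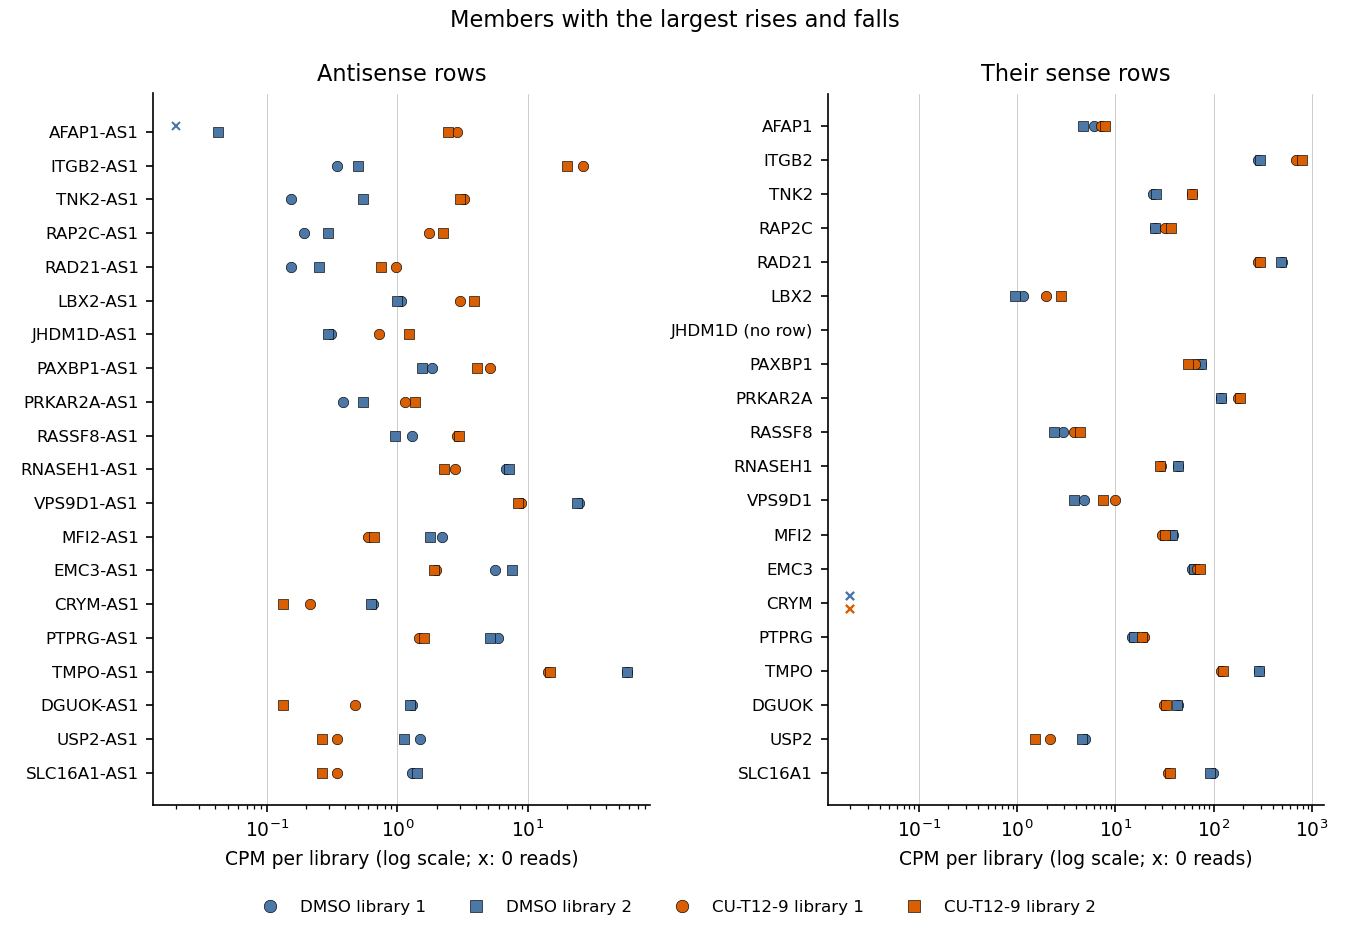
CPM on a log axis in each library for the 10 members with the largest rises (top) and the 10 with the largest falls (bottom), with antisense rows on the left and their sense rows on the right. Circles are library 1 and squares library 2 of each group, and a cross stands for 0 reads. In all 20 antisense rows the CU-T12-9 points lie on one side of the DMSO points. The rows were chosen as the largest called changes in these same libraries, so the choice favours this separation and it is no further support.

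TMPO-AS1 was the most deeply read of the large falls. It had 58.2 and 57.8 CPM under DMSO and 14.4 and 14.9 CPM under CU-T12-9 (log2 fold change -1.98 ± 0.07, edgeR adjusted p = 2.2e-08). TMPO encodes lamina-associated polypeptide 2, a protein of the inner nuclear membrane, and fell from 289 and 291 to 119 and 125 CPM (-1.26 ± 0.05). The library pairs were close to each other in both rows and the groups stood far apart. SLC16A1-AS1, USP2-AS1, DGUOK-AS1 and CRYM-AS1, also among the 10 largest falls, reached the floor through DMSO, so their choice favours a fall, and their values are a description. SLC16A1-AS1 went from 34 and 34 to 8 and 6 reads (-2.14 ± 0.35) beside SLC16A1, the lactate transporter MCT1, which fell from 98.2 and 92.5 to 34.1 and 35.5 CPM. USP2-AS1 went from 39 and 27 to 8 and 6 reads (-2.10 ± 0.37) beside USP2, a deubiquitinase (-1.37 ± 0.21).

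In the remaining large falls whose sense gene had reads, the sense row moved less or the other way. RNASEH1-AS1 fell by 1.46 on the log2 scale and RNASEH1, the nuclease that removes RNA from RNA-DNA hybrids, by 0.61. DGUOK-AS1 had 34, 30, 11 and 3 reads in the 4 libraries, a log2 fold change of -2.05, beside a fall by 0.44 of DGUOK, a mitochondrial nucleoside kinase. The DGUOK-AS1 value was -3.19 without CU-T12-9 library 1 and -1.44 without CU-T12-9 library 2. MFI2-AS1 fell by 1.66 and MFI2, the melanotransferrin gene, by 0.32. PTPRG-AS1, EMC3-AS1 and VPS9D1-AS1 fell while their sense rows rose and are described with the opposite pairs. CRYM-AS1 went from 17 and 15 to 5 and 3 reads (-1.85 ± 0.46), with no read of CRYM in any library, and missed the threshold without DMSO library 1 (adjusted p = 0.0528).

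Taking the pairs one by one, both rows changed in 60 of 203. Beside 65.2% of all genes, 80 of the 202 tested members and 74.4% of the 180 tested sense rows changed. At the shares of the members and the sense rows, many pairs would have both rows called with no link between them. Whether 60 exceeds that number was not tested. They moved in the same direction in 36 (20 both up, 16 both down) and in opposite directions in 24, of which 12 had the antisense row up and 12 had it down. Without the members that reached the floor through 1 group, 27 pairs moved in the same direction and 22 in opposite directions. Only the sense row changed in 75 pairs, only the antisense row in 12, and neither in 33. In the others the sense row was too low to be tested (7 with the antisense row called and 14 without) or the antisense row was. Across the 180 pairs with both rows tested, the log2 fold changes correlated with Pearson's r of 0.22 and Spearman's rho of 0.19. This describes pairs that share the same 4 libraries and, where they overlap, may share reads, and pairs are no replicates. The DESeq2 Wald test gave 19 pairs in the same direction and 17 in opposite directions.

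**Figure D2:**
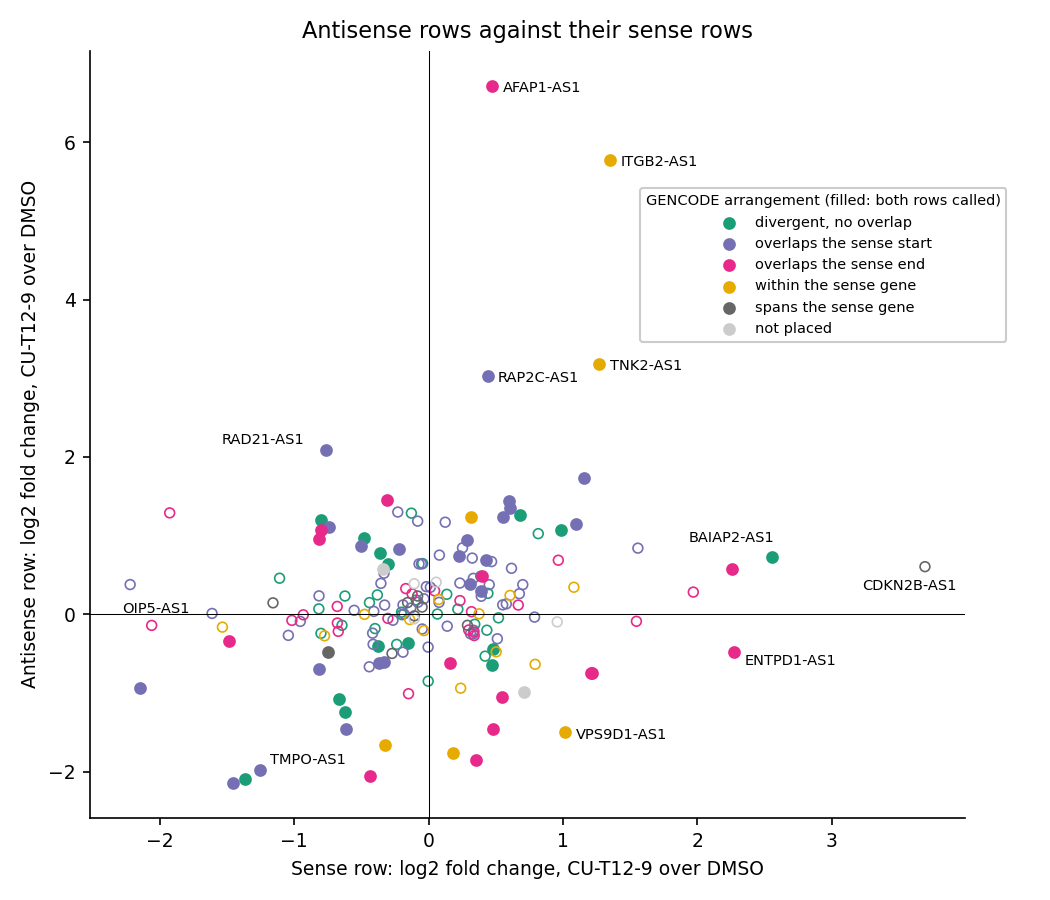
Log2 fold change (CU-T12-9 over DMSO) of the antisense row against that of its sense row for the 180 pairs in which both were tested. Each point is a pair, the colour gives the arrangement in GENCODE 29, and filled points are the 60 pairs in which both rows passed the test; 36 of them lie in the quadrants of equal sign and 24 in those of opposite sign.

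The pairs were also counted by how the genes lie to each other. In GENCODE 29 (GRCh38) 166 members were found by name, 32 through RefSeq synonyms and 6 not at all. Of the pairs, 82 overlapped at the start of the sense gene, 41 ran away from it without overlap, 39 overlapped at its end, 22 antisense genes lay within it and 12 spanned it. These classes depend on the annotation. By the RefSeq starts many start-overlap pairs ran apart without overlap. Examples are PRKAR2A (63 bases between starts), INTS6 (309), WAC (425), NDUFA6 (161), DICER1 (159) and RNASEH1 (53). The divergent PAN3 pair overlapped there. The line between start-overlap and divergent pairs thus shifts with the annotation, and their counts below rest on it. These counts were not repeated with RefSeq starts. The start-overlap pairs held 18 in the same direction and 4 in opposite directions (r = 0.46, rho = 0.43 over 72 pairs), among them the TMPO and LBX2 pairs. The end-overlap pairs held 5 in the same direction and 10 in opposite directions (r = -0.04, rho = -0.15 over 36). Divergent pairs had 8 and 6 (r = 0.33, rho = 0.19 over 39), and pairs with the antisense gene inside the sense gene had 4 and 2 (r = 0.45, rho = 0.38 over 18). Without the members that reached the floor through 1 group, the counts were 14 and 3 at the start, 3 and 10 at the end, 6 and 5 for divergent pairs and 3 and 2 within the sense gene.

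The order of these counts was noticed after the data were seen, and the difference between arrangements was not tested. Leaving out single libraries moved the start-overlap counts between 10 and 23 for the same direction and between 3 and 7 for opposite directions, and the end-overlap counts between 4 and 7 and between 8 and 12. The lowest start-overlap value, 10, came without DMSO library 1, and 7 opposite pairs came without CU-T12-9 library 2. For divergent pairs the counts without DMSO library 1 were 6 and 3, and without DMSO library 2 they were 4 and 2. Under the DESeq2 Wald test the same-direction counts fell as well, to 10 at the start, 2 at the end and 3 for divergent pairs. The opposite count of divergent pairs fell to 3 with that test, and the opposite counts at the start and end moved less in proportion. Exons overlapped in 139 of 197 placed pairs, with a median of 5.37% of the antisense exonic bases lying in sense exons. Pairs with exon overlap held 26 in the same and 16 in opposite directions (r = 0.22, rho = 0.23 over 122), and pairs without it 10 and 6 (r = 0.32, rho = 0.20 over 52), so r and rho differ in which class is higher.

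**Figure D3:**
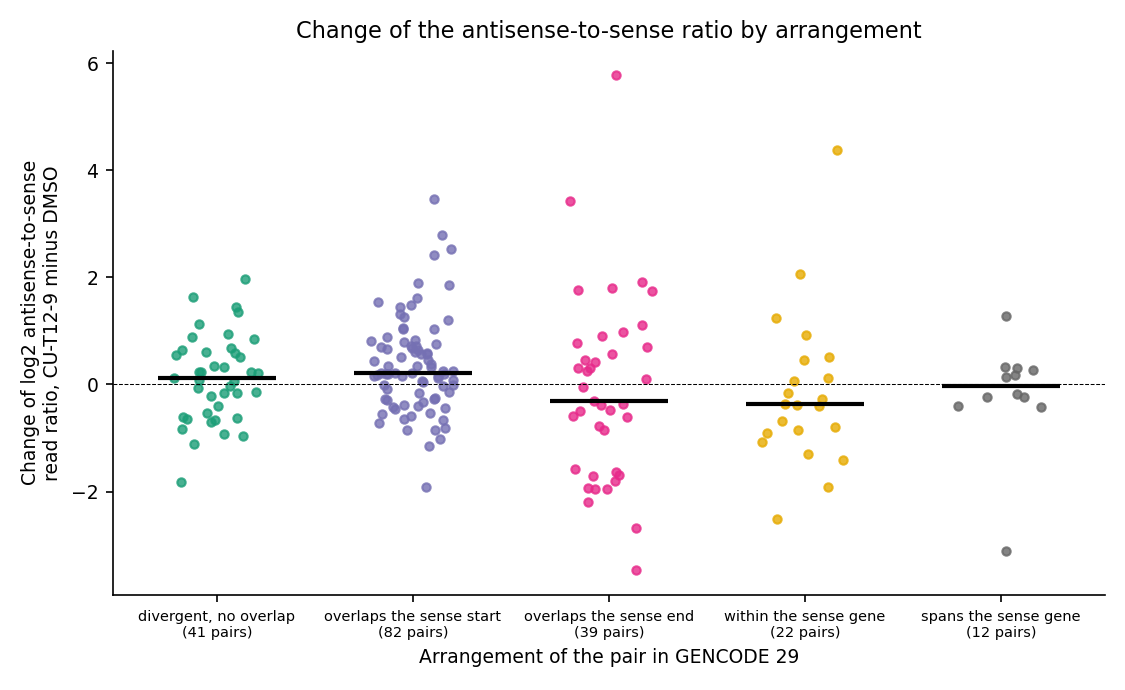
Change of the log2 ratio of antisense to sense reads (CU-T12-9 mean minus DMSO mean, 0.5 reads added to each count) by arrangement of the pair in GENCODE 29. Each point is a pair and the black bar is the median, which is 0.12 for divergent pairs, 0.21 at the sense start, -0.31 at the sense end, -0.37 within the sense gene and -0.02 where the antisense gene spans the sense gene.

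Examples of pairs that moved together follow, chosen after their values were seen. IL10RB-AS1 had 1.27 and 1.29 CPM under DMSO and 2.78 and 2.61 under CU-T12-9 (log2 fold change 1.07 ± 0.22, edgeR adjusted p = 0.00209), and IL10RB went from 30.6 and 31.9 to 61.7 and 61.7 CPM (0.98 ± 0.06). Both rows were higher in each CU-T12-9 library than in either DMSO library. BAIAP2-AS1 had 23.2, 24.5, 39.9 and 39.4 CPM and rose by 0.73, while BAIAP2, a scaffold protein of the cell cortex, went from 11.7 and 13.1 to 68.3 and 77.1 CPM and rose by 2.55. In this divergent pair antisense reads per 100 sense reads went from 198 and 187 to 58.4 and 51.1, with no overlap between the groups. SH3BP5-AS1 rose by 0.58 beside SH3BP5 (2.26), and MBNL1-AS1 by 1.24 beside the splicing regulator MBNL1 (0.32). Falls on both sides were found for EPHA1-AS1 (-0.94) with the ephrin receptor EPHA1 (-2.15), PRKCQ-AS1 (-1.07) with PRKCQ (-0.66), a protein kinase C, and UBA6-AS1 (-0.40) with UBA6 (-0.37).

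Of the 24 opposite pairs, the 20 with the widest gap between their rows are shown by library in the plot of opposite pairs. VPS9D1-AS1 had 24.6 and 24.0 CPM under DMSO and 8.81 and 8.35 under CU-T12-9 (log2 fold change -1.50 ± 0.09, edgeR adjusted p = 7.6e-07). VPS9D1, which carries a VPS9 domain of the kind found in RAB5 exchange factors, went from 4.76 and 3.76 to 9.79 and 7.51 CPM (1.02 ± 0.18). In reads the antisense row exceeded the sense row under DMSO (640 and 574 against 124 and 90) and was close to it under CU-T12-9 (206 and 189 against 229 and 170). PTPRG-AS1 fell from 5.87 and 5.14 to 1.45 and 1.59 CPM while PTPRG, a receptor tyrosine phosphatase, rose from 14.6 and 15.3 to 19.7 and 18.7 CPM. TTC28-AS1 and SBF2-AS1 each fell by 0.74 on the log2 scale while TTC28 and SBF2 each rose by 1.21. MCM3AP-AS1 fell by 1.45 beside MCM3AP (0.48), the nuclear export scaffold GANP, and MAFG-AS1 by 0.98 beside the small MAF factor MAFG (0.71). ENTPD1-AS1 had 10.6, 11.9, 9.15 and 6.89 CPM (log2 fold change -0.48, and -0.30 without CU-T12-9 library 2), while ENTPD1, the ectonucleotidase CD39, went from 5 and 4 reads to 23 and 18 (2.27 ± 0.42).

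In the converse pattern the antisense row rose and the sense row fell. PSMG3-AS1 was the most deeply read of them, at 7.60 and 8.14 CPM under DMSO and 16.7 and 17.2 under CU-T12-9 (1.11 ± 0.10, edgeR adjusted p = 1.2e-05). PSMG3, a proteasome assembly chaperone, went from 41.9 and 39.3 to 26.2 and 22.2 CPM (-0.74 ± 0.09). GAS6-AS1 had 1.61, 1.71, 4.49 and 2.48 CPM and rose by 1.07, with CU-T12-9 library 1 well above library 2. Without that library its rise was 0.61 (edgeR adjusted p = 0.0479) and without library 2 it was 1.43. GAS6, a ligand of the TAM receptors, went from 361 and 377 to 215 and 208 CPM. GAS6-AS2, which shares that sense row, had 3.15, 3.38, 2.91 and 2.61 CPM and did not pass the test (-0.24, adjusted p = 0.272). NDUFA6-AS1 rose by 0.86 (0.51 without CU-T12-9 library 1) beside the complex I subunit NDUFA6 (-0.50), TRAM2-AS1 by 0.97 beside TRAM2 (-0.48), and PAXIP1-AS2 by 0.96 beside the DNA damage protein PAXIP1 (-0.82).

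**Figure D4:**
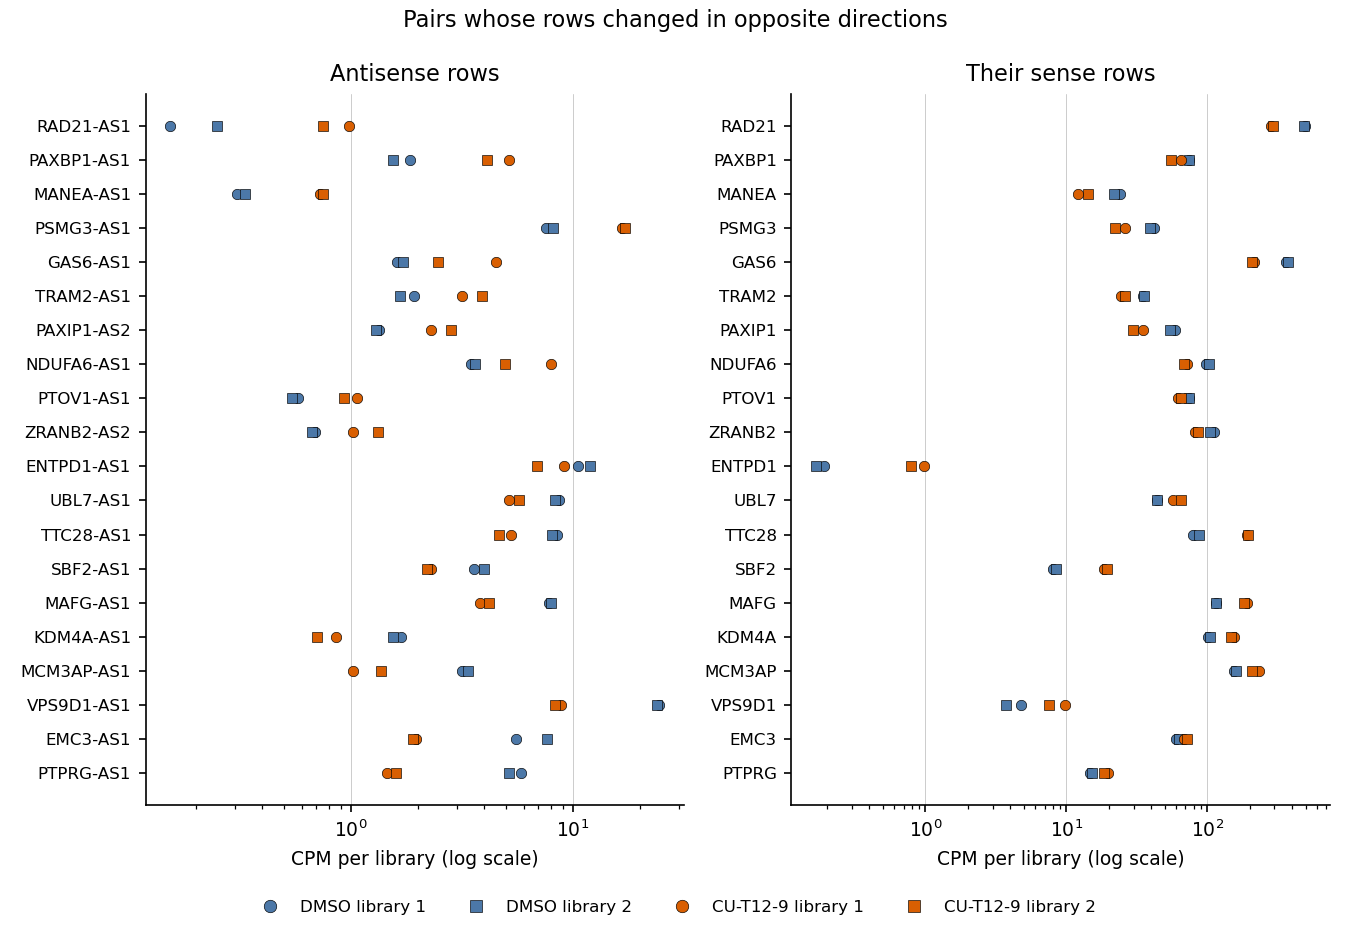
CPM on a log axis in each library for the 20 opposite pairs with the widest difference, with antisense rows on the left and sense rows on the right. Circles are library 1 and squares library 2 of each group. In the 10 upper pairs the antisense row rose and the sense row fell, and in the 10 lower pairs the reverse was measured.

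Several of these calls rested on few reads or on 1 library. MANEA-AS1 had 8, 8, 17 and 17 reads in the 4 libraries, reached the floor through CU-T12-9, and missed the threshold without DMSO library 1 (adjusted p = 0.176), without DMSO library 2 (0.126) and without CU-T12-9 library 2 (0.0636). ZRANB2-AS2 (18, 16, 24 and 30 reads) missed it without DMSO library 1, DMSO library 2 or CU-T12-9 library 2, and PTOV1-AS1 (15, 13, 25 and 21 reads) without any single library. Both also missed it with a replicate block (adjusted p = 0.0606 and 0.0598), with no filter on low counts (0.0592 and 0.0654) and by the DESeq2 Wald test (0.247 and 0.263). KDM4A-AS1 (44, 37, 20 and 16 reads) missed it without DMSO library 1 (adjusted p = 0.0689), as PTPRG did (0.0718), and ENTPD1-AS1 without DMSO library 2 (0.0566). For EMC3-AS1, which fell from 145 and 183 to 46 and 43 reads, the rise of EMC3 itself was small (0.18) and not called without either DMSO library (adjusted p = 0.308 and 0.111).

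The ratio of antisense to sense reads within a library does not depend on library size, and some of its largest changes came from pairs in which only the sense row passed the test. The median change of the log2 ratio over 203 pairs was 0.15, with quartiles of -0.48 and 0.67, and it was 0.05 without CU-T12-9 library 1. The ratio rose beyond 2-fold in 32 pairs and fell beyond 2-fold in 24. With 2 libraries against 2, an exact two-sided permutation test of a single ratio cannot go below p = 0.333, so these changes are given without a test. CDKN2B-AS1, the antisense RNA of the INK4 locus also called ANRIL, had 1.23, 1.55, 2.52 and 1.68 CPM (log2 fold change 0.61 ± 0.28, edgeR adjusted p = 0.0825). CDKN2B, the CDK inhibitor p15, rose from 2.26 and 2.67 to 31.3 and 32.6 CPM (3.70 ± 0.11), the largest rise of a sense row. Antisense reads per 100 sense reads went from 54.2 and 57.8 to 8.06 and 5.15. Without CU-T12-9 library 2, the lower of that pair, CDKN2B-AS1 passed the test (0.87, adjusted p = 0.00502).

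OIP5-AS1, known as Cyrano, showed the reverse. It had 173, 175, 145 and 171 CPM (log2 fold change -0.14 ± 0.07, edgeR adjusted p = 0.124), and passed the test without CU-T12-9 library 2 (-0.26, adjusted p = 7.8e-09). OIP5, a centromere protein of the Mis18 complex, fell from 25.3 and 23.7 to 5.47 and 6.28 CPM (-2.06 ± 0.11). Antisense reads per 100 sense reads went from 683 and 739 to 2648 and 2720. BZRAP1-AS1 was a case in which only the antisense row changed: it went from 14.3 and 15.4 to 36.8 and 36.2 CPM (1.30 ± 0.08, adjusted p = 7.1e-07), while BZRAP1 had 4.99, 5.30, 4.83 and 3.93 CPM (adjusted p = 0.243). PXN-AS1 likewise fell from 9.33 and 7.52 to 4.40 and 3.98 CPM, beside PXN at 0.806, 0.835, 0.684 and 0.796 CPM (adjusted p = 0.702).

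Of the 10 members with the most reads 4 changed and 6 did not pass the test. Over all genes tested 72.4% of rows of 1000 to under 10000 reads changed, and 80.7% of rows of 10000 reads or more. FAM211A-AS1, now named SNHG29 as a host of small nucleolar RNAs, had 688, 682, 628 and 656 CPM (log2 fold change -0.10, edgeR adjusted p = 0.114), and was called lower without CU-T12-9 library 2 (-0.13, adjusted p = 0.00449). FGD5-AS1 had 138, 132, 131 and 143 CPM (0.02, adjusted p = 0.758), and was called higher without CU-T12-9 library 1 (0.12, adjusted p = 0.0132). HNRNPU-AS1 had 124, 120, 136 and 98.3 CPM, with the CU-T12-9 libraries on either side of the DMSO libraries. Its change was -0.06, and it was called lower without CU-T12-9 library 1 (-0.28, adjusted p = 1.9e-08) and higher without library 2 (0.16, adjusted p = 0.00114). RefSeq lists this name as a synonym of HNRNPU, so the row could not be placed beside its sense gene. TMPO-AS1 and TTN-AS1 (64.1, 65.3, 59.0 and 43.1 CPM) fell and MMP24-AS1 (31.9, 32.7, 52.6 and 55.2 CPM) and BAIAP2-AS1 rose. The change of TTN-AS1 was -0.34, -0.55 without CU-T12-9 library 1 and -0.13 without library 2. WAC-AS1 and CEBPZ-AS1 did not pass the test, but were called higher without CU-T12-9 library 1 (0.14 and 0.20, adjusted p = 0.0265 and 0.00184), and WAC-AS1 also without library 2 (0.13, adjusted p = 0.0398). MMP24-AS1 and CEBPZ-AS1 carry newer symbols as small protein-coding genes, and 7 members in all have the protein-coding type in GENCODE 29. Per exonic base the antisense row stood above the sense row in all 4 libraries in 43 of 196 pairs, and in reads in 33 of 203.

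The counts by role that follow stand beside a background of 32.0% of all genes higher and 33.2% lower, and no role was tested against it. They are counts over pairs, so the GAS6 and PAXIP1 rows enter once for each of their 2 antisense members. By the role of the sense gene, the largest median change of the ratio, 1.24 on the log2 scale, was found for cell cycle, DNA replication and repair. In these 11 pairs the sense row fell in 9 and rose in 2, and its median change over the pairs was -0.82 on the log2 scale. PAXIP1 is counted here in 2 pairs, and this median is its own change. Of the antisense rows 2 fell and 2 rose, with a median of 0.07. RPA3, a subunit of the single-strand DNA binding complex, went from 40.7 and 42.1 to 13.1 and 14.0 CPM (-1.61 ± 0.08), beside RPA3-AS1 at 13.3, 13.1, 12.7 and 13.9 CPM (0.01 ± 0.10, edgeR adjusted p = 0.925). PRC1, an organiser of the spindle midzone, fell by 1.53, and PRC1-AS1 had 17, 11, 17 and 6 reads. Roles were assigned by hand, and members named for their role were chosen after their values were seen.

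Beside the same background of 32.0% higher and 33.2% lower, sense genes of immune and inflammatory signalling (9 pairs) rose in 6 and fell in 2, with a median of 0.84, and their antisense rows rose in 2 and fell in 2, with a median of 0.28. HLA-F, a non-classical class I molecule, went from 3.99 and 4.47 to 15.6 and 17.6 CPM (1.97 ± 0.13), beside HLA-F-AS1 at 0.653, 0.668, 0.770 and 0.840 CPM (adjusted p = 0.471). TRAF3IP2, an adaptor of interleukin-17 signalling, rose by 1.55, beside TRAF3IP2-AS1 at 1.65, 1.29, 1.63 and 1.15 CPM (adjusted p = 0.798). CD27-AS1 rose from 4.53 and 4.18 to 8.25 and 6.81 CPM (0.79 ± 0.15, edgeR adjusted p = 0.00148), with 1 read of the lymphocyte receptor gene CD27 in all 4 libraries. For genes of metabolism, transport and mitochondria (25 pairs), 15 sense rows fell and 3 rose, and 6 antisense rows fell and 3 rose. For transcription factors and chromatin (41 pairs), 21 sense rows rose and 11 fell, and 5 antisense rows rose and 4 fell (42 members with JHDM1D-AS1, which adds 1 rise). RNA processing and translation (22 pairs) had 11 sense falls and 6 rises, beside 3 antisense falls and 5 rises. Membrane traffic, cytoskeleton and adhesion (31 pairs) had 14 sense rises and 6 falls, beside 7 antisense rises and 9 falls. Other signalling (20 pairs) had 8 sense rises and 5 falls, beside 7 antisense rises and 2 falls, and sense genes of other or unknown role (44 pairs) had 9 rises and 8 falls, beside 14 antisense rises and 6 falls.

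Genes that process antisense and double-stranded RNA changed in both directions. Of 58 listed genes 57 were in the table under the names searched, and 20 rose, 20 fell and 17 did not pass the test, a share of changed genes close to the 65.2% of the background. Of 23 genes of the RNA exosome and its cofactors, 13 fell and 4 rose, and the median of all 23 was -0.24 on the log2 scale. The exosome core genes EXOSC2 (-1.48 ± 0.08), EXOSC9 (-1.31 ± 0.09) and EXOSC8 (-1.14 ± 0.07) fell most, EXOSC2 from 64.7 and 66.3 to 25.4 and 21.4 CPM. Of 15 genes of double-stranded RNA editing and sensing, 9 rose and 3 fell, with a median of 0.61. The rises included the oligoadenylate synthetases OAS3 (5 and 2 reads, then 170 and 221), OAS2 (3.20 ± 0.17) and OAS1 (2.98 ± 0.20) and the sensors IFIH1 (2.71 ± 0.08), DHX58 (1.85 ± 0.18) and EIF2AK2 (1.54 ± 0.09). The double-stranded RNA binding protein ILF2 (-0.86) and the helicase DHX9 (-0.47) were among those that fell. For Integrator, which cuts short nascent transcripts, 4 of 11 rose and 3 fell, and for RNA interference 3 of 8 rose and 1 fell. Whether these changes bear on the antisense rows was not tested.

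Rows near the members in kind or in read number were few. Just inside the floor lay CRYM-AS1, MEF2C-AS1 (11, 9, 6 and 14 reads) and SAP30L-AS1 (10, 7, 18 and 5 reads), each with 40 reads in all. Just outside lay UXT-AS1 with 38, BHLHE40-AS1 with 36 and MORF4L2-AS1 with 34. Of the 672 antisense symbols under the floor 4 could be tested, of which 1 rose and 1 fell. Of 133 rows for intronic transcripts (-IT) 6 could be tested and 2 rose, and none of 6 rows for overlapping transcripts (-OT) could be.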

How the data were processed

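The authors deposited whole-number read counts per gene symbol. Their tools, per the submitters' processing notes, were FastQC 0.11.7, TopHat2 on GRCh37 and featureCounts 1.5.2. The sources used here do not give the annotation, the strand setting or the treatment of reads on overlapping genes. Counts were tested in R 4.3.3 with edgeR 4.0.16 (quasi-likelihood F-test, group as the only term, filterByExpr, TMM, Benjamini-Hochberg over 14018 genes, threshold 0.05), and the step was tested on simulated data. CPM uses TMM-scaled library sizes, by which 1 read is 0.0384 to 0.0442 CPM. Values after ± are standard errors. Intervals cover counting error only. The members, lists and roles were chosen with earlier results of these data known. Members were named for the 10 largest changes each way, the 10 with most reads, the 20 widest opposite pairs, the 10 largest changes of the ratio and the 10 highest ratios under DMSO. Alternatives were DESeq2 1.42.0, its size factors, other filters and floors, a replicate block, a fold of 2 as null and each library left out. Arrangements come from GENCODE 29, another build than the alignment, so no positions of members are given. Sequences are RefSeq's.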

Additional observations from a re-analysis of the deposited data

How the results depend on the processing

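Tested against a fold of 2, 8 antisense members were higher and 7 lower, 10 sense rows were higher and 9 lower, and 4 pairs moved in the same direction and 0 in opposite directions, since this null asks for a larger change. The DESeq2 Wald test gave 19 pairs in the same direction, and the cause was not tested. The median log2 fold change of the sense rows, -0.03 in the report, was -0.0122 with DESeq2 size factors, -0.0123 with DESeq2, -0.016 with no filter, -0.0169 with at least 1 CPM in 2 libraries, -0.0099 with a floor of 20 reads and 0.0659 with a floor of 100 reads. Its sign thus changed with the floor. Leaving out each library in turn moved the antisense members higher between 34 and 59 and lower between 27 and 35, the sense rows higher between 61 and 76 and lower between 55 and 73, the pairs in the same direction between 24 and 45 and those in opposite directions between 16 and 28. The antisense median ranged from -0.001 to 0.1687, the sense median from -0.0496 to 0.0052 and the median change of the ratio from 0.0477 to 0.165. HNRNPU-AS1, at -0.06 in the report, ranged from -0.2809 without CU-T12-9 replicate 1 to 0.1562 without CU-T12-9 replicate 2. Of the 80 members called, 55 were also called by DESeq2, 55 without DMSO library 1 and 75 without CU-T12-9 library 2, and no member called in both changed direction. Libraries of the same number share only that number (the correlation of their deviations was 0.0079). With a replicate block 49 antisense members were higher and 35 lower, 71 sense rows were higher and 65 lower, and 37 pairs moved in the same direction and 24 in opposite directions, with medians of 0.0955 and -0.0259. The calls of ZRANB2-AS2 and PTOV1-AS1 were lost with the block (adjusted p = 0.0606 and 0.0598). Of the 204 members 59 had under 100 reads in all and 57 were under 1 CPM.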
